A study of Mus musculus with 4 samples.

Results

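The gp130 cytokine receptor family of the hair follicle bulge was examined through the receptor genes Il31ra, Osmr, Il6st, Lifr, Il6ra, Il11ra1 and Cntfr and the ligand genes Osm, Lif and Il6. Of these 10 genes, 9 had a row of the deposited table that named them and no other gene, 1 row each, out of 21780 such rows and 19935 genes in all. Il11ra1 had no such row and was not analysed here. Il31ra was chosen by its measured CSA-minus-vehicle difference on these same arrays, and the other genes were added by family. The values are therefore given as a description, and no p-value is attached to a single member.

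The bulge houses the resting stem cells of the follicle. Male CD-1 mice aged 56 postnatal days, in the second telogen (a resting phase of the hair cycle), received intraperitoneal injections over 3 days of either CSA at 100 mg/kg or vehicle, and skin cells positive for CD34 and for alpha6 integrin were then isolated by sorting. CSA, which the labels leave unexplained, is the usual short form of cyclosporine A, an inhibitor of the phosphatase calcineurin, which activates the NFAT transcription factors. RNA of 2 CSA and 2 vehicle samples, described as biological replicates, was read on 4 one-colour arrays. The labels give neither the number of mice behind a sample nor any other treatment or allele. Each value is a log value, taken as log2, counted from a baseline that the authors set for the row. A value of 0 is that baseline and not absence of RNA, so levels cannot be compared between genes, and 4 arrays limit the precision. Over the 21780 rows, which are not independent replicates, the arrays numbered replicate 2 resembled each other most, across treatments (Pearson r of 0.55, against 0.04 to 0.20 for the other pairs).

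Cytokines of this family signal by bringing receptor chains together at the cell surface. Il6st encodes gp130, the signalling chain that IL-6, IL-11, LIF, CNTF and oncostatin M share. LIF engages gp130 with the LIF receptor (Lifr), and mouse oncostatin M (Osm) engages gp130 with its own receptor chain (Osmr). IL-31 is the exception in that its receptor pairs Il31ra with Osmr and does without gp130; in skin it is known as a cytokine of itch. The Il6ra, Il11ra1 and Cntfr products bind ligand but depend on the partner chains to signal. Janus kinases bound to the chains phosphorylate STAT proteins, above all STAT3, and SOCS proteins limit the response.

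Across the arrays, the Il31ra chain stood far above its baseline and was lower in CSA, whereas its partner Osmr, gp130 and Lifr lay below theirs on 3 of 4 arrays and had higher means in CSA, as did 42% of all rows. limma's moderated test, run over all 21780 rows with Benjamini-Hochberg adjustment, called 0% of them at a threshold of 0.05 (0 rows, with a smallest adjusted p of 0.999), and 646 rows (2.97%) had an unadjusted p under 0.05. None of the 9 members was among the rows called. The 2 groups of arrays did not overlap for 3 of the 9 members (Il31ra and Osm lower in CSA, Lifr higher), against 26.5% of all rows, and 2 members were at least 1.5-fold apart as well, against 6.28% of all rows. These were Il31ra, lower in CSA as 2.11% of all rows were by that rule, and Lifr, higher as 4.16% were. Because Il31ra was chosen by its difference on these arrays, its place in both counts carries no weight. The median difference was 0.0098 over the members and -0.04 over all rows.

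**Figure D1:**
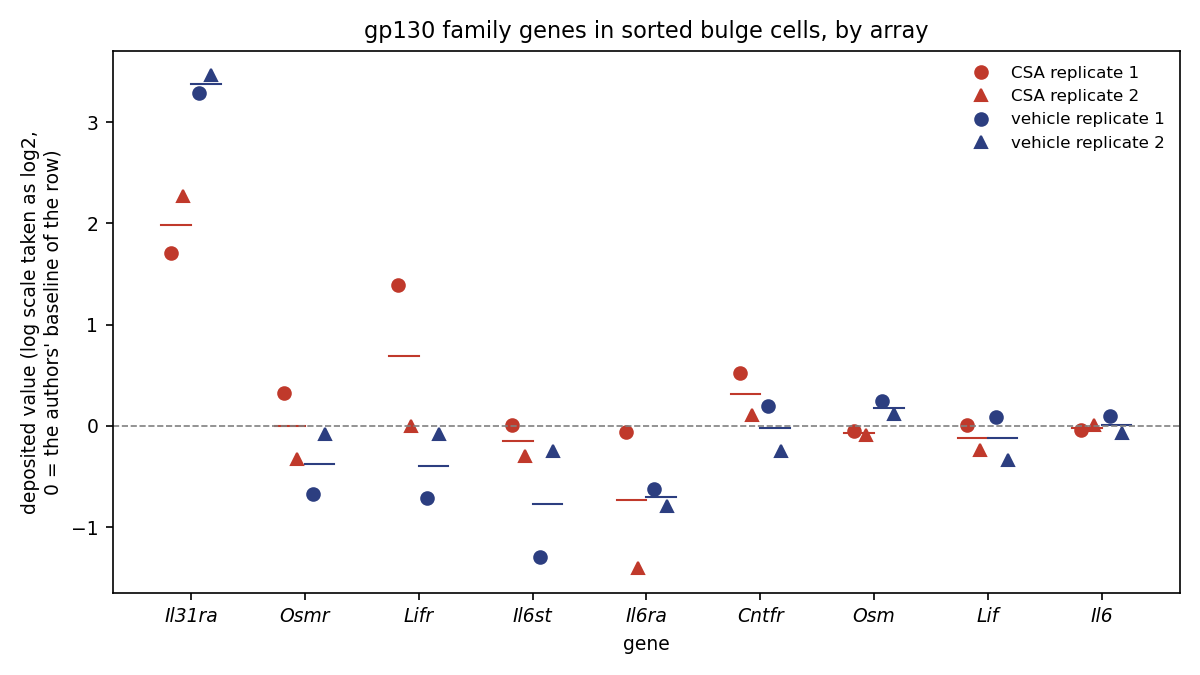
Deposited values (log scale taken as log2, 0 being the authors' baseline of the row) of the 9 genes on each of the 4 arrays; red marks CSA and blue marks vehicle, circles replicate 1 and triangles replicate 2, and short lines the mean of the 2 arrays of a group. Il31ra lies between 1.71 and 3.46 on all arrays, with both CSA arrays below both vehicle arrays; vehicle replicate 1 is the lowest point of Osmr, Lifr and Il6st.

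Il31ra encodes the ligand-binding chain of the IL-31 receptor. It was 1.71 and 2.27 in CSA versus 3.28 and 3.46 in vehicle. The groups did not overlap, and the gap between the group means was wider than the gap between the arrays of either group (0.56 in CSA and 0.18 in vehicle). The means were 1.99 in CSA and 3.37 in vehicle, so that CSA minus vehicle came to -1.39 ± 0.26 in log2 units (± gives the moderated standard error of limma throughout, with 2 arrays in each group). With a mean-variance trend in the fit, that standard error was 8.26; the cause was not tested. If the scale is log2, vehicle exceeded CSA 2.61-fold. The difference stayed between -1.67 (without CSA replicate 2) and -1.11 (without CSA replicate 1) when 1 array was left out. As Il31ra was chosen by this difference, neither the gap between the groups nor this range is a test of it. Fewer cells with the transcript and less transcript per cell cannot be told apart in such bulk samples.

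The height of Il31ra above its baseline set it among few rows. On CSA replicate 1, 99.6% of all rows had a lower value, and on vehicle replicate 1 99.96% did. Only 31 rows (0.142%), from 15 genes, exceeded 1 on all 4 arrays, a limit chosen after the values were seen. Ranked by their lowest array, Il31ra was in place 3, after Krt24 and Cd34. The stem cell receptor gene Lgr5 and the secreted Dickkopf family gene Dkk3 were there too, and 17 of the rows belonged to Hmcn1, which encodes the extracellular matrix protein hemicentin 1. Nearly all of this set was lower in CSA: 30 of the 31 rows, and all rows of 14 of its 15 genes, had a lower mean in CSA. Id2 was the exception, and over all rows 42% had a higher mean in CSA. For 16 rows the groups did not overlap, all lower, against 15.2% of all rows. These rows are not separate genes: 10 of the 16 belonged to Hmcn1, 1 was Il31ra itself, and the rest came from 5 other genes. With 1 row per gene, that of the highest mean, 14 of the 15 genes kept a row of this set, and 13 of these 14 rows had a lower mean in CSA. The count of lower rows was 27 after quantile normalization, 25 without CSA replicate 1 and 24 without vehicle replicate 2.

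The genes whose 4 values lay nearest to those of Il31ra, by Euclidean distance over the 4 arrays, were Krt24 (distance 1.29), Hmcn1 (1.51), Mme (1.68), Lgr5 (1.68) and Cd34 (1.72). Clone and predicted-gene names and further rows of the same gene were passed over, and 8 rows in all lay within that distance. The genes were picked for values like those of Il31ra, so the choice itself favours a lower mean in CSA. Krt24, a keratin gene, was 2.26 and 1.92 in CSA versus 2.31 and 2.92 in vehicle. Mme, which encodes the membrane peptidase neprilysin, was 0.45 and 2.29 in CSA versus 2.20 and 3.21 in vehicle. Cd34, the surface marker of the sort, was 1.75 and 3.60 in CSA versus 4.05 and 4.25 in vehicle. For Krt24 and Cd34 the groups did not overlap, as for Il31ra, while for Mme CSA replicate 2 lay between the vehicle arrays. Lgr5 was 1.22 on CSA replicate 1, below both vehicle arrays (2.70 and 3.02), and 3.70 on CSA replicate 2, above both. The nearest Hmcn1 row was 1.21 and 1.85 in CSA versus 2.22 and 2.62 in vehicle, without overlap. The CSA arrays of Cd34 stood 1.85 apart and those of Il31ra 0.56 apart.

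**Figure D2:**
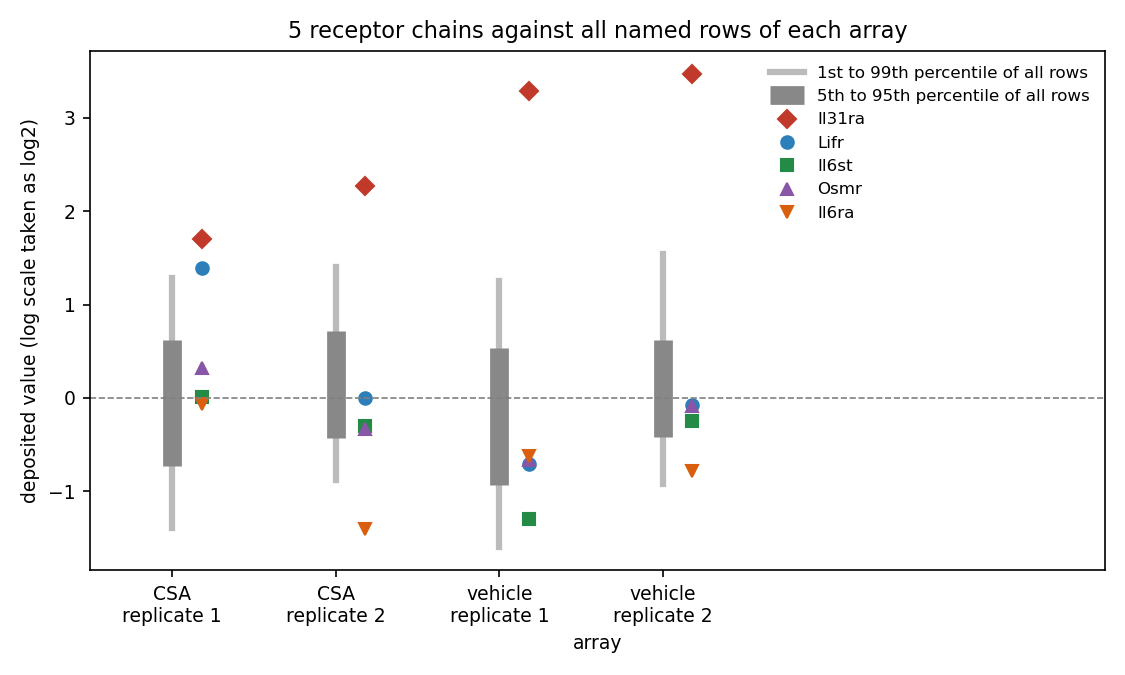
Deposited values of Il31ra, Lifr, Il6st, Osmr and Il6ra on each array beside the spread of all 21780 rows (thick bar from the 5th to the 95th percentile, thin bar from the 1st to the 99th). Il31ra is above the 99th percentile on all 4 arrays, Lifr above it on CSA replicate 1, and Il6ra below the 1st percentile on CSA replicate 2.

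Markers of the sorted cells and of possible companions were followed on the same arrays. The 10 bulge markers had medians of 0.27 and 1.15 in CSA versus 0.39 and 0.71 in vehicle, and 7 were lower in CSA. Cd34, Lgr5, Sox9, Lhx2, Nfatc1, Tcf7l1 and Krt15 were above their baselines on every array. Itga6, the integrin of the sort, was below on both CSA arrays (-0.70 and -0.53) and on vehicle replicate 1. It was at 0.083 on vehicle replicate 2. Krt14 and Krt5 were below on CSA replicate 1, and Krt14 on vehicle replicate 1 as well. Presence or absence of a marker cannot be read from such centred values. All 8 measured markers of differentiated epidermis were lower in CSA, with medians of -1.03 and -0.39 against 0.50 and -0.36. Their median difference was -0.92, and 5 of the 8 were at least 1.5-fold lower without overlap, against 2.11% of all rows. The median of these epidermal markers was highest on vehicle replicate 1. All 7 fibroblast markers, all 6 endothelial, 3 of 5 melanocyte, 5 of 7 mast cell and granulocyte and both measured Schwann cell markers were lower in CSA as well, with median differences between -0.20 and -0.02. Over all rows, 42% were higher in CSA and the median difference was -0.04. The part of cell composition in the Il31ra difference was not tested.

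Il31ra lies next to Il6st on mouse chromosome 13, with no other gene that had a row of its own between them, and Osmr lies next to Lifr on chromosome 15 in the same sense. The stretches of 250 bases before the start of Il31ra (minus strand, chr13:112580663-112580912), of Il6st (plus strand, chr13:112463820-112464069) and of Osmr (minus strand, chr15:6874314-6874563), from RefSeq on build GRCm38.p6, are shown because they belong to the gene that led the difference, to its neighbour with the opposite sign and to its partner chain. Capitals mark matches to GGAAA, the core that NFAT factors bind, and to TTCNNNGAA, the palindrome that STAT factors bind, on either strand.
Il31ra: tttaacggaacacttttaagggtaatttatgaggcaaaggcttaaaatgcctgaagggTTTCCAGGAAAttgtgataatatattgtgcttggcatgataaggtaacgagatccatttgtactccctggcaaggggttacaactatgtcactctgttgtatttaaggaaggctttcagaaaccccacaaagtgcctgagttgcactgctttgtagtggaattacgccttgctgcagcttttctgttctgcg
Il6st: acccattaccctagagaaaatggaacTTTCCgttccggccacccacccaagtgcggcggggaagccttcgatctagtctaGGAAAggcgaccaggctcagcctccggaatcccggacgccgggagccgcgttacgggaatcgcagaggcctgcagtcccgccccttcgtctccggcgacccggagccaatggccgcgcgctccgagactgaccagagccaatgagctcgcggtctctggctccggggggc
Osmr: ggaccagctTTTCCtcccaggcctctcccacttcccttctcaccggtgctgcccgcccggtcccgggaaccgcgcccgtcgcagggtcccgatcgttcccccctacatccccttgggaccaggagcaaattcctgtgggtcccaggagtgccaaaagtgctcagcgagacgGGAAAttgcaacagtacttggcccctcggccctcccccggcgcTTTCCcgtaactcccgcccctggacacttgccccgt
In the Il31ra stretch the match to TTCNNNGAA runs from base 191 to base 183 before the start and overlaps both of its GGAAA matches. Sequences were found for 9 of the 10 genes (all but Osm), in 16 windows. TTCNNNGAA occurred in 1 of the 16 windows (6.25%), that of Il31ra, and in 7.02% of all 32851 windows of that length. GGAAA occurred in 6 of the 16 (37.5%), each of another gene, and in 55.6% of all windows. By gene it occurred in 6 of 9. Cntfr had several windows, some of them overlapping and none with GGAAA, so the windows are not independent. TGAGTCA, bound by AP-1, was searched as well and occurred in 2 of the 16 (12.5%), upstream of Lif and Il6, and in 4.46% of all windows. Such matches describe the letters of the reference and not sites in use.

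Osmr, the chain that completes the receptors of IL-31 and of oncostatin M, did not follow Il31ra. It was 0.32 and -0.33 in CSA versus -0.67 and -0.084 in vehicle. The groups overlapped, and the difference of 0.37 ± 0.34 was about as large as its error. Leaving out CSA replicate 1 brought it to 0.049, and leaving out vehicle replicate 1 to 0.081.

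Il6st, the gp130 gene itself, was 0.0084 and -0.30 in CSA versus -1.30 and -0.25 in vehicle. CSA replicate 2 lay below vehicle replicate 2, and the groups overlapped. Vehicle replicate 1 stood 1.05 below the other vehicle array. On vehicle replicate 1 only 2.06% of the rows had a lower value, each counted from its own baseline. The difference of 0.63 ± 0.41 shrank to 0.10 when vehicle replicate 1 was left out and grew to 1.15 when vehicle replicate 2 was.

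Lifr, the receptor chain of LIF, was 1.39 and -0.0044 in CSA versus -0.71 and -0.076 in vehicle. The groups did not overlap, but CSA replicate 2 and vehicle replicate 2 were 0.072 apart. CSA replicate 1 was higher than 99.2% of all rows on its array, each counted from its own baseline. The difference of 1.09 ± 0.56 was the largest among the members with a higher mean in CSA, and it came to 0.39 if CSA replicate 1 was left out and to 0.77 if vehicle replicate 1 was.

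The 3 chains shared an order: CSA replicate 1 was the highest and vehicle replicate 1 the lowest array for each. This order was noticed after the values were seen, and 7.89% of all rows had it. The neighbouring gene Rictor, which encodes a subunit of the mTORC2 kinase complex and lies on the far side of Osmr, had it too (0.82 and -0.43 in CSA versus -0.78 and 0.16 in vehicle). Egflam, on the far side of Lifr, did not (-0.080 and 0.23 in CSA versus 0.12 and 0.51 in vehicle). Ankrd55, on the far side of Il6st, did not either (-0.058 and -0.44 in CSA versus 0.18 and -0.21 in vehicle). Nor did Ddx4, on the far side of Il31ra (-0.032 and -0.10 in CSA versus 0.11 and 0.084 in vehicle).

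**Figure D3:**
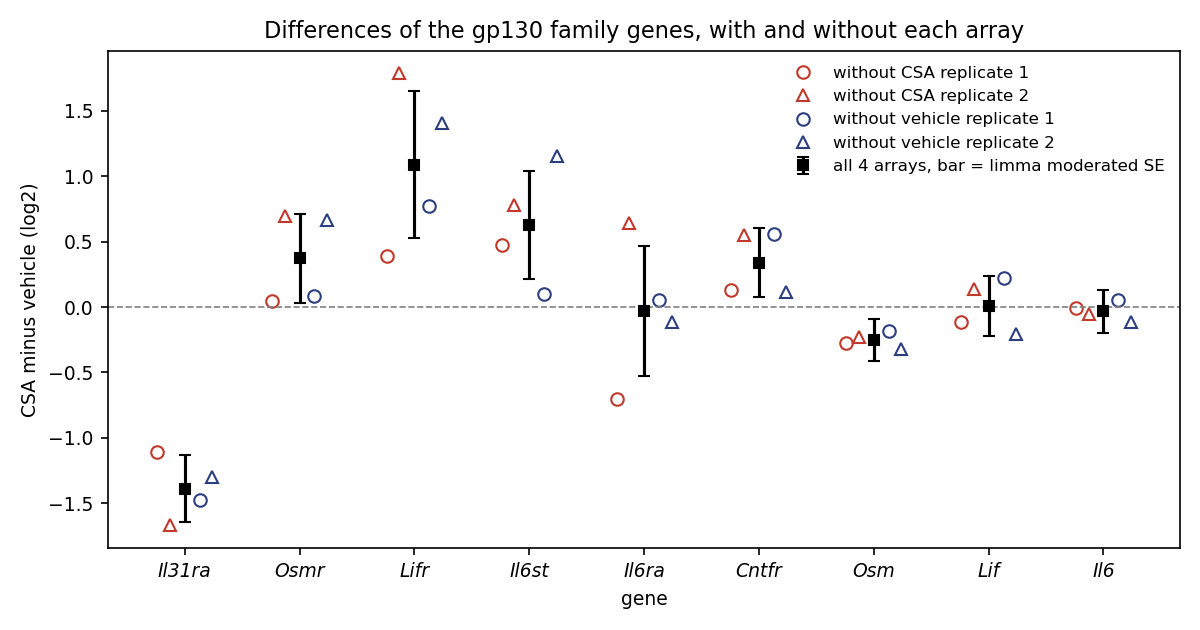
CSA minus vehicle on the log2 scale for the 9 genes: black squares with limma's moderated standard error use all 4 arrays, and open symbols leave out 1 array each (red for a CSA array, blue for a vehicle array). The open symbols of Il31ra stay between -1.67 and -1.11; those of Il6ra run from -0.70 to 0.64 and lie on both sides of 0.

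The chains that bind ligand without signalling themselves were represented by Il6ra and Cntfr. Il6ra, the IL-6 receptor alpha chain, was below its baseline on all 4 arrays, at -0.063 and -1.41 in CSA versus -0.62 and -0.79 in vehicle. The CSA arrays enclosed the vehicle arrays, and the group means were nearly equal (-0.73 and -0.70). Its difference of -0.03 ± 0.50 turned to 0.64 without CSA replicate 2, so that no direction can be given. Cntfr, the alpha chain for CNTF, was 0.53 and 0.11 in CSA versus 0.20 and -0.24 in vehicle, with overlapping groups. Its difference of 0.34 ± 0.26 ran from 0.12 (vehicle replicate 2 left out) to 0.56 (vehicle replicate 1 left out).

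The ligand genes stayed close to their baselines. Osm, a cytokine made mostly by myeloid and T cells, was -0.050 and -0.090 in CSA versus 0.25 and 0.11 in vehicle. The groups did not overlap, and the difference was -0.25 ± 0.16, a size that 67.3% of all rows fell short of. Of the 11 macrophage and dendritic cell markers 10 were lower in CSA too, with a median difference of -0.12 and medians of -0.081 and -0.23 in CSA against 0.14 and -0.079 in vehicle. The groups did not overlap for 2 of these 11, both lower, against 15.2% of all rows. Over all rows, 42% were higher in CSA and the median difference was -0.04. Of the 6 measured T cell markers 3 were lower, with a median difference of -0.04. The part of such cells in the Osm difference was not tested.

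Lif, whose product acts through Lifr and gp130, was 0.0098 and -0.24 in CSA versus 0.088 and -0.34 in vehicle. Il6, an inflammatory cytokine gene, was -0.043 and 0.0042 in CSA versus 0.098 and -0.074 in vehicle. For both genes the CSA arrays lay between the vehicle arrays. The differences were 0.0098 ± 0.23 and -0.03 ± 0.16, and that of Il6 was 0.0012 after quantile normalization.

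Other cytokines and chains of the family were drawn from a list, of which 12 of 15 genes had a row. In CSA 1 was higher and 11 were lower, with a median of -0.12 against -0.04 over all rows; limma called 0, and the groups did not overlap for 3, all lower, against 15.2% of all rows. The median was -0.32 without CSA replicate 1 and -0.016 without CSA replicate 2, when that of all rows was -0.026. Those 3 were the ligand genes Ctf1, Ctf2 and Clcf1. Ctf1, which encodes cardiotrophin 1, was -0.020 and 0.020 in CSA versus 0.047 and 0.83 in vehicle. Its difference of -0.44 ± 0.31 was -0.047 without vehicle replicate 2. Ctf2 was 0.043 and -0.13 in CSA versus 0.060 and 0.63 in vehicle, so that vehicle replicate 2 stood apart for it as well (difference -0.39 ± 0.26, and -0.10 without that array). Clcf1, a ligand of the CNTF receptor, differed by -0.15 ± 0.16 and Il12rb1, a chain of the IL-12 and IL-23 receptors, by -0.25 ± 0.21, or -0.10 when CSA replicate 2 was left out. Il31, the ligand of Il31ra, was 0.066 and -0.26 in CSA versus 0.11 and 0.013 in vehicle, with overlapping groups.

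Of the Janus kinases, STAT proteins and adaptors that carry the signal inward, 15 of 19 genes had a row. In CSA 8 were higher and 7 lower (median 0.0014, and -0.079 to 0.043 with 1 array left out), limma called 0, and the groups did not overlap for 1 higher and 2 lower genes, against 11.3% and 15.2% of all rows. Stat3, the main effector of gp130, was 0.41 and -0.60 in CSA versus 0.34 and -0.14 in vehicle, a difference of -0.20 ± 0.42 in which the spread between the CSA arrays was wider than the difference. It turned to 0.31 without CSA replicate 2. Stat5b was -0.13 and -0.37 in CSA versus 0.46 and -0.038 in vehicle. The Stat5b difference of -0.46 ± 0.25 came to -0.21 when vehicle replicate 1 was left out and -0.71 when vehicle replicate 2 was. Gab1, a docking protein that couples gp130 to the MAP kinase route, was -0.26 and -0.41 in CSA versus 0.089 and 0.038 in vehicle. The groups did not overlap for Stat5b and Gab1, and the Gab1 difference of -0.40 ± 0.16 stayed between -0.48 and -0.33 with any 1 array left out. Jak2, a kinase bound to the chains, differed by 0.28 ± 0.26 and by 0.021 if vehicle replicate 1 was left out, and Ptpn11, the phosphatase SHP2 that gp130 recruits, by 0.25 ± 0.32 and by -0.042 or -0.023 if CSA replicate 1 or vehicle replicate 1 was.

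Among the negative regulators, higher rows outnumbered lower ones. All 15 listed genes had a row, 20 rows together, of which 12 were higher and 8 lower in CSA (median 0.14); limma called 0, and 6 rows did not overlap, all higher, against 11.3% of all rows. The median stayed between 0.04 and 0.13 with 1 array left out. Socs4, of the SOCS family, was 0.26 and 0.012 in CSA versus -0.82 and -0.47 in vehicle. Ptpn1, the phosphatase PTP1B that acts on Janus kinases, was 0.36 and -0.69 in CSA versus -2.37 and -0.89 in vehicle. Pias1, which encodes a SUMO ligase, was 1.15 and 0.19 in CSA versus -0.049 and 0.049 in vehicle. The differences were 0.78 ± 0.21 for Socs4, 1.46 ± 0.66 for Ptpn1 and 0.67 ± 0.37 for Pias1. For Ptpn1, vehicle replicate 1 was by far the lowest array, and the difference was 0.72 without it. Pias1 in turn rested on CSA replicate 1 and differed by 0.19 without it. Pias3, the inhibitor named for its action on STAT3, differed by 0.53 ± 0.21. Socs3, the feedback inhibitor that binds gp130, had 2 rows, with differences of -0.03 ± 0.17 and -0.0074 ± 0.17, both of which turned above 0 after quantile normalization (0.026 and 0.017).

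Genes known to be induced by STAT3 in other tissues had rows for 24 of 25, in 25 rows, of which 14 were higher and 11 lower in CSA (median 0.04). This list includes the member Osmr and shares Stat3, Socs3 and Il4ra with other lists, so the lists are not separate. The median turned to -0.20 without CSA replicate 1 and -0.15 without vehicle replicate 2, and was 0.23 without CSA replicate 2, so that it has no settled direction. limma called 0, and the groups did not overlap for 3 higher and 4 lower rows, against 11.3% and 15.2% of all rows. Serpina3n, an acute phase serpin, was 3.81 and 1.61 in CSA versus -0.020 and 0.020 in vehicle (difference 2.71 ± 0.79, and 1.61 without CSA replicate 1). Cebpd, an acute phase transcription factor, was 2.77 and 0.39 in CSA versus -0.068 and 0.14 in vehicle. The Cebpd difference of 1.54 ± 0.85 was 0.35 without CSA replicate 1. Hif1a, the oxygen-regulated transcription factor, was -0.13 and -0.46 in CSA versus -0.052 and 0.46 in vehicle (difference -0.50 ± 0.26, and -0.24 without vehicle replicate 2). Both Serpina3n and Cebpd were higher on CSA replicate 1 than on CSA replicate 2. The median of the list was so too, at 0.21 against -0.29, while that of all rows was 0.0071 against -0.019.

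**Figure D4:**
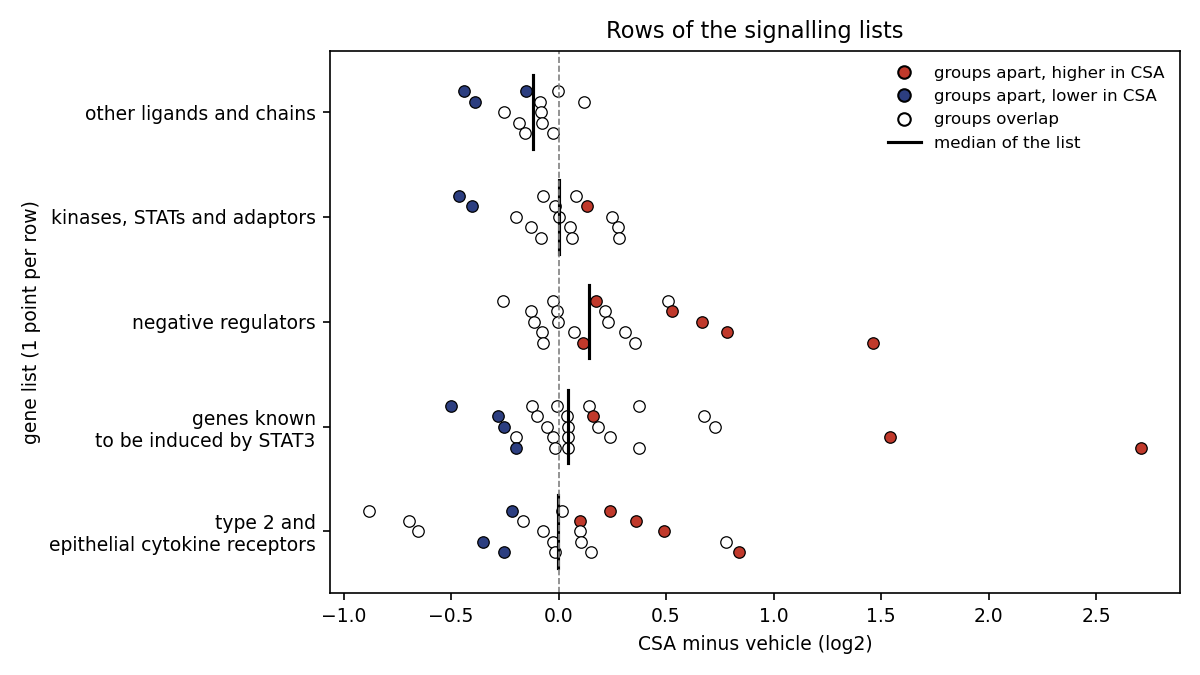
CSA minus vehicle on the log2 scale for each row of the 5 signalling lists, 1 point per row, with the list's median as a vertical line. Filled points mark rows whose groups did not overlap (red higher and blue lower in CSA); the 6 filled points of the negative regulators are all red, and the point at 2.71 is Serpina3n.

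Receptors of other cytokines that act on skin gave a comparison outside the gp130 family. Of 20 listed genes 17 had a row, 20 rows in all, of which 10 were higher and 10 lower (median -0.0016, and 0.020 to 0.079 with 1 array left out). limma called 0, and the groups did not overlap for 5 higher and 3 lower rows, against 11.3% and 15.2% of all rows. Il22ra1, an IL-22 receptor chain of epithelia, had a row at 0.74 and 1.15 in CSA versus 0.076 and 0.13 in vehicle. This row differed by 0.84 ± 0.21. The second Il22ra1 row was also higher in CSA, by 0.15 ± 0.42, but its groups overlapped, so that the rows leave the size unsettled. Il13ra1, shared by the receptors for IL-4 and IL-13, differed by 0.36 ± 0.18 and the interferon receptor gene Ifnar2 by 0.49 ± 0.30, or 0.16 when vehicle replicate 2 was left out. Il4ra, the other chain for IL-4 and IL-13, was -0.36 and -0.45 in CSA versus -0.20 and -0.10 in vehicle, with no overlap and a difference of -0.25 ± 0.16.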

How the data were processed

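The values are log values as deposited by the authors in the series matrix (28815 rows, 4 arrays), taken here as log2. Per the labels' protocols, 20 ng of RNA was amplified in 1 round into biotin-labelled cDNA; the submitters' processing notes name the build mm8 and nothing more. Array software, normalization and log base were not given in the sources used here, so log2 is an assumption, and the baseline of each row is unknown. Rows were named through the platform annotation: 21780 named 1 gene, 1605 named several and 5430 were not listed. Only the first kind was fitted, with every row kept. Differences were fitted with limma 3.58.1 (lmFit and eBayes without trend, two-sided) in R 4.3.3, with Benjamini-Hochberg adjustment, no filter and no block; the code was tested on simulated data. Named genes are all members, from each list the 4 rows with the largest absolute t plus Stat3 and Socs3, the 5 genes nearest to Il31ra, and neighbours; Il31 and the second Il22ra1 row were added after their values were seen. Members and lists were chosen with earlier results of these data known. Array medians lay between -0.02 and 0.06. Alternatives were other scalings, a filter, other row sets, a trend, a replicate block and leaving out each array.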

Additional observations from a re-analysis of the deposited data

How the results depend on the processing

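limma called 0 rows under every alternative tried. The sign of the difference held in all alternatives that gave a value for 6 of the 9 members (all but Lif, Il6ra and Il6). The trend, the block, the filter and the other row sets reuse the same array values and could not turn a member's sign. Nor could leaving out 1 array for Il31ra, Osm and Lifr, whose groups did not overlap. Il31ra differed by -1.12 after quantile normalization and by -1.67 to -1.11 with 1 array left out. Leaving out 1 array gave ranges of -0.20 to 0.22 for Lif, -0.70 to 0.64 for Il6ra, -0.12 to 0.055 for Il6, -0.042 to 0.54 for Ptpn11, -0.70 to 0.31 for Stat3, -0.15 to 0.098 and -0.13 to 0.12 for the Socs3 rows, and -1.64 to 0.85 for Lgr5. Quantile normalization turned Il6 to 0.0012, the Socs3 rows to 0.026 and 0.017 and Lgr5 to 0.14, and centring arrays on their medians turned the second Socs3 row to 0.020; the cause was not tested. Rows 1.5-fold apart without overlap numbered 1367, of which 66.3% were higher in CSA. Once rows whose mean fell under the 25th percentile were dropped, 16335 rows were tested and 741 were 1.5-fold apart without overlap. That was a steeper fall than that of the rows tested. Of the 741, 437 were higher and 304 lower in CSA, against 907 and 460 before. That filter left no value for Osmr, Il6st, Lif or Il6ra. Leaving out 1 array gave 1825 to 3848 such rows, where 1 array against 2 overlaps less often by construction. The share higher in CSA was then 42.2% to 74.6%. Nothing in the labels pairs samples of the same number, whose deviations from the group means correlated at 0.22 across rows; with the replicate number as a block limma called 0 rows (smallest adjusted p 0.86), and the Il31ra difference was -1.39 ± 0.17. A trend in eBayes leaves the differences unchanged but raised the standard error of Il31ra to 8.26, of Cd34 to 51.9 and of Lgr5 to 7.90, each above its difference. All rows of the table or 1 row per gene leave the difference of a given row unchanged as well. The number of arrays limits every value, and signal over background was not available.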
